A study of Mus musculus with 53 samples.

Results

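Deletion of the transcription factor genes Tead1 and Tead2 in the granule neuron lineage of the mouse cerebellum was followed by bulk RNA-seq at postnatal day 2 (P2). Of the 53 samples of the series, 7 belong to this experiment, and each is the whole cerebellum of a single pup. The 3 controls carried homozygous floxed alleles of both genes (Tead1fl/fl;Tead2fl/fl) without Cre. The 4 mutants carried the same alleles with Atoh1Cre (Atoh1Cre;Tead1fl/fl;Tead2fl/fl), and the labels place all 7 in batch 3. The comparison described here sets mutants 1, 2 and 3 against the 3 controls. The library labelled mutant 4 is shown beside them and results are given with and without it, because its muscle genes were known to lie near the control levels. The tests of muscle genes over 6 libraries are therefore not independent of that choice. All genes of the table except the ERCC spike-in entries entered, which left 55573 genes. Atoh1Cre acts in cells of the rhombic lip lineage, so that Purkinje cells, glia, vessels and meninges in the same tissue would keep the floxed genes intact, which was not tested.

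TEAD proteins bind DNA and take their activity from cofactors, of which YAP1 and TAZ (encoded by Wwtr1) are the best known. The Hippo kinase pathway holds these cofactors out of the nucleus. In skeletal muscle, TEADs bind MCAT elements in contractile genes and act beside the myogenic helix-loop-helix factors MYOD1 and MYOG, which start the programme that fuses myoblasts and builds the sarcomere. In the early postnatal cerebellum, granule cell progenitors divide under Sonic hedgehog in the external granule layer and then leave the cell cycle to become granule neurons. INSM1 is a zinc finger repressor of neural and endocrine progenitors, and the series also deletes its gene.

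The libraries held 28066643 to 64518751 expected counts, and 19179 to 21157 genes reached 10 counts in a library. Control 2 and the library labelled mutant 4 came from females by their Xist and Ddx3y levels, and the other 5 from males, so that mutants 1 to 3 were all male. Over the most variable genes outside the muscle lists, the first principal component (29.5% of the variance) placed mutants 1 to 3 at 6.72, 12.7 and 20.3. Controls 1 and 3 lay at -1.50 and 0.73 on it, and the 2 female libraries at -20.6 and -18.4. The second component (24.9%) placed controls 1 to 3 at 11.1, -2.42 and 22.5, and mutants 1 to 3 at 5.39, -5.78 and -14.9. On the second component the library labelled mutant 4 lay at -15.8, next to mutant 3. Granule lineage genes were abundant in all 7 libraries and 14 hindbrain Hox genes summed to 0.740 to 2.52 CPM, too low for any to be tested. Levels are CPM, counts scaled to a common depth, on library sizes scaled by TMM factors. Transcripts of liver genes summed to 56.2 CPM in mutant 2, against 2.08 to 4.47 in the controls, and choroid plexus genes to 93.3 CPM in the same library, against 20.4 to 28.8. No gene of these 2 lists was called, and their part in the other results was not tested. In whole tissue, fewer cells of a type and less RNA per cell cannot be told apart.

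At the level of whole genes, Tead1 was not called and Tead2 fell slightly. Tead1 stood at 53.6, 46.3 and 34.6 CPM in controls 1 to 3, at 39.5, 36.7 and 49.8 CPM in mutants 1 to 3, and at 42.7 CPM in the library labelled mutant 4. Those groups overlap, and Tead1 was not called (log2 fold change -0.10 ± 0.15 SE, adjusted p = 0.751). Tead2 stood at 23.3, 25.6 and 22.2 CPM in the controls and at 19.4, 19.4 and 17.3 CPM in mutants 1 to 3, while the library labelled mutant 4 had 25.7 CPM, above every control. Tead2 fell by 0.35 on the log2 scale (SE 0.07, adjusted p = 0.0417), a call that was kept in 1 of the 6 fits that leave out a library. A count over a whole gene does not measure the deleted exons, and these tissues also contain cells outside the lineage of Atoh1Cre. The part of either in these values was not tested. Among the other family members, Tead4 rose from 0.842, 0.780 and 0.778 CPM to 2.45, 2.46 and 3.02 CPM (log2 fold change 1.71 ± 0.18 SE, adjusted p = 0.00111), with 0.537 CPM in the library labelled mutant 4. Tead3 was not called (-0.28 ± 0.13 SE, adjusted p = 0.247).

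With mutants 1 to 3, 646 of 20234 genes tested were called at an adjusted p under 0.05 by edgeR's quasi-likelihood test. Of these, 400 rose (1.98% of the genes tested) and 246 fell (1.22%). Changes were mostly small: 243 of the genes that rose and 146 of those that fell moved by under 1.5-fold, whereas 44 rose and 10 fell by at least 4-fold. Over all 7 libraries the same test called 0 genes, with a lowest adjusted p of 0.0689 and 4052 genes at an unadjusted p under 0.05. DESeq2 over the 7 libraries called 1005 genes (5.87% of those with an adjusted p), 412 of them among the 646. Each of the 646 genes kept its sign in all 15 alternative fits, which reuse the same libraries. All 400 genes that rose and 244 of the 246 that fell had no overlap between controls and mutants 1 to 3, against 25.5% of all genes tested. Leaving out a library could hardly turn the sign of such genes, so the kept signs are no separate support. The count depends on single libraries, since it was 234 without control 1, 272 without control 2, 246 without mutant 1 and 260 without mutant 2. It was 650 without control 3 and 747 without mutant 3.

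Skeletal muscle genes were among the largest rises. In 9 lists of muscle genes with 119 distinct tested members, 43 rose (36.1%, against 1.98% of all genes) and 1, the calcium release channel gene Ryr3, fell. The lists hold 147 genes of the table, and the low-count filter keeps a gene that is high enough in mutants 1 to 3 alone. Some members, such as Cox8b with 0 counts in each control, were tested only because the mutants hold them, which can raise that share. The median log2 fold change of the 119 was 0.30, against -0.01 for all genes tested. All 43 lay lower in the library labelled mutant 4 than in each of mutants 1 to 3. There, 17 of the 43 lay within the range of the controls, as did 122 of all 400 genes that rose. That library was set apart for its muscle gene values, so these counts restate the choice. Of the 43, 28 were called in every fit that left out a library. These lists were drawn up with results of these animals known, so that their direction is not independent evidence.

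Myogenin, which commits myoblasts to differentiation, showed the largest rise of the genes that reached 1 CPM. Myog stood at 0.198, 0.236 and 0.318 CPM in the controls and at 29.0, 36.7 and 34.4 CPM in mutants 1 to 3, but at 0.411 CPM in the library labelled mutant 4. The 3 mutants are far above the controls with no overlap, and the fourth mutant library is just above the highest control. The log2 fold change was 7.08 ± 0.17 SE (adjusted p = 4.52e-08), and 6.69 with the fourth library, where the adjusted p was 0.0898, the highest of 15 alternatives. Myod1, the factor that can turn other cells into muscle, stood at 0.0743, 0.118 and 0.106 CPM in the controls and at 5.51, 6.66 and 5.50 CPM in mutants 1 to 3 (log2 fold change 5.85 ± 0.23 SE, adjusted p = 1.61e-06). The library labelled mutant 4 had 0.253 CPM. Six4, a homeobox factor of early myogenesis, rose by 0.61 on the log2 scale (adjusted p = 0.0313), a call kept in 1 of 6 fits that leave out a library.

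Other muscle regulators were not called. Myf5 and Myf6, the remaining myogenic helix-loop-helix genes, lay at or under 0.137 CPM in every library and were not tested. Pax7, which marks muscle stem cells, stood at 0.567 to 0.718 CPM in the controls and 0.330 to 0.567 CPM in mutants 1 to 3 (log2 fold change -0.59, adjusted p = 0.275). Pax3 had a log2 fold change of -0.09 (adjusted p = 0.411). Mef2c, a partner of MYOG at muscle genes that neurons also use, stood at 61.7 to 67.5 CPM in the controls and 72.7 to 95.4 CPM in mutants 1 to 3 (log2 fold change 0.38, adjusted p = 0.0611).

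Promoters of 3 of the largest rises and 2 of the largest falls are printed because the data turn on their transcription. Myod1 and Otx1 are named only, and the genes of the 2 falls shown are uncertain, as described with their levels. They come from RefSeq (build GRCm38.p6), run 5′ to 3′ on the strand of the gene, and span 250 bases before to 50 bases after the start. Capitals mark 3 motifs, each searched on both strands: CATTCC (the core of the MCAT element), CAGCTG (an E-box) and the MEF2 motif in its strict form, with looser forms not searched. Of all 32851 promoters of this length in the table, 14.7% hold the first, 16.3% the second and 0.557% the MEF2 motif. The regions are chr1:134289754-134290053 for Myog (plus strand), chr2:114052826-114053125 for Actc1 (minus), chr1:135799171-135799470 for Tnni1 (plus), chr14:4498298-4498597 for Gm3173 (plus) and chr14:5740369-5740668 for Gm3373 (minus).
Myog: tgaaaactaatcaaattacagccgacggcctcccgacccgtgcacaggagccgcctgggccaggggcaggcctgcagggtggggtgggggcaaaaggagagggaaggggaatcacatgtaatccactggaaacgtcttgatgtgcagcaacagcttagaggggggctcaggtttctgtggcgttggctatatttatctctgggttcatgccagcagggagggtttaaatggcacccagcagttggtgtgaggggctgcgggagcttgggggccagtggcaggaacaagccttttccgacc
Actc1: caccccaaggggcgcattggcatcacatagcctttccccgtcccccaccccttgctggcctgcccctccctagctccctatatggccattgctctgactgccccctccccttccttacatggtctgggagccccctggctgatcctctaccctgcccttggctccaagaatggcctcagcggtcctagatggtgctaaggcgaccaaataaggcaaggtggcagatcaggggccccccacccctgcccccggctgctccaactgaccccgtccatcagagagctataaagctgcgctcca
Tnni1: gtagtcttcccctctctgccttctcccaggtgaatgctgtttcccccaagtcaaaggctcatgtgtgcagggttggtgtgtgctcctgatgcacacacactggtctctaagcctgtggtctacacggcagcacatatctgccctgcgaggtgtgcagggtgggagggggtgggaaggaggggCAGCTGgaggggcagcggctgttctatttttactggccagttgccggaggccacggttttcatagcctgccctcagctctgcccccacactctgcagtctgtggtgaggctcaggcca
Gm3173: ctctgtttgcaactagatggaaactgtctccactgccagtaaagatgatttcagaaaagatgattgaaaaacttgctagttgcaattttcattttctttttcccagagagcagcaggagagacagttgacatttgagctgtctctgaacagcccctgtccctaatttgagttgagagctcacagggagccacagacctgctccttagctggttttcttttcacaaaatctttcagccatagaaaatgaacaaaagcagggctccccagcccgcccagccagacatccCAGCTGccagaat
Gm3373: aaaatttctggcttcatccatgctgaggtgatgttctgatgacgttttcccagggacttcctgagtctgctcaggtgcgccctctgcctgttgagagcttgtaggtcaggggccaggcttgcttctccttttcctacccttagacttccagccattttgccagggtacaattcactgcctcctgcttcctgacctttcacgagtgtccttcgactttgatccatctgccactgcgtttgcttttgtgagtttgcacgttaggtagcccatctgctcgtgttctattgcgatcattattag
The Tnni1 window holds 1 CAGCTG, starting 68 bases before the start, and the Gm3173 window holds 1 after it. Other forms of the E-box were not searched. The windows of Myog, Actc1 and Gm3373 hold neither CATTCC nor CAGCTG, nor the strict MEF2 form, which says nothing of looser forms of that motif. Tnni1 has 2 starts in the table, and Gm3173 and Gm3373 have 3 each, of which the first listed is shown. A match is a string of letters and not evidence of binding.

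Genes of the thin filament, which carries actin, troponin and tropomyosin, had the highest share of calls among the lists, with 11 of 14 tested members higher and a median log2 fold change of 1.25. Of all genes tested 1.98% rose and 1.22% fell, shares that also stand behind the counts of the muscle lists that follow. Cardiac actin Actc1, the actin of embryonic muscle, stood at 0.669, 0.827 and 0.601 CPM in the controls and at 28.9, 40.1 and 44.0 CPM in mutants 1 to 3. It stood at 0.948 CPM in the library labelled mutant 4. Without that library the log2 fold change was 5.72 ± 0.21 SE (adjusted p = 1.42e-06). Slow troponin I (Tnni1) rose from 0.212 to 0.354 CPM in the controls to 6.87 to 10.2 CPM (log2 fold change 4.96) and cardiac troponin T (Tnnt2) from 0.142 to 0.389 CPM to 5.36 to 9.13 CPM (4.58). Nebl, a nebulin relative that is also made outside muscle, rose by 0.40 from 61.4 to 62.8 CPM in the controls. Skeletal actin Acta1 rose from 1.29 to 1.73 CPM to 2.56 to 3.54 CPM (log2 fold change 1.05, adjusted p = 0.0177). Of the 11 calls, those of Acta1 and Tnni2 were kept in 3 of the 6 fits that leave out a library and those of Tnnc1 and Tnnt3 in 1, and these 4 were lost with a term for sex.

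Of 14 thick filament genes, 5 rose. Embryonic myosin heavy chain Myh3 stood at 2.40, 2.53 and 1.98 CPM in the controls, at 16.5, 21.8 and 32.2 CPM in mutants 1 to 3 and at 2.59 CPM in the library labelled mutant 4. That is a log2 fold change of 3.33 ± 0.24 SE (adjusted p = 0.000104), and the 3 mutants lie above every other library. The perinatal chain Myh8 stood at 16.0 to 18.6 CPM in the controls and 16.9 to 24.2 CPM in mutants 1 to 3 and was not called (adjusted p = 0.401). The slow chain Myh7 was not called either (log2 fold change 0.11, adjusted p = 0.763), and the adult fast chains Myh1 and Myh4 were too low to test. The difference between these isoforms was not tested. Light chains Myl1 and Mylpf rose (log2 fold changes 3.74 and 3.09), as did the binding protein Mybpc1 (0.58) and the M-band gene Myom2 (1.14, adjusted p = 0.0459, called in 0 of 6 fits that leave out a library). Myl4, a light chain of embryonic and atrial muscle, had a log2 fold change of 0.74 and was not called (adjusted p = 0.0875).

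At the Z-disc and along titin, 6 of 16 genes rose, with a median log2 fold change of 0.87. Titin (Ttn), the spring of the sarcomere, stood at 14.2, 16.1 and 15.4 CPM in the controls, 59.4, 69.6 and 70.1 CPM in mutants 1 to 3 and 10.2 CPM in the library labelled mutant 4. The last value lies below every control, and the rise in the other 3 was 2.12 ± 0.08 SE on the log2 scale (adjusted p = 1.61e-06). Klhl41, which stabilises thin filaments, Klhl31 and the myosin chaperone Unc45b rose by 4.21, 3.71 and 2.71.

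Of 11 genes for myoblast adhesion and fusion, 3 rose, and the list's median log2 fold change was 0.001. Mymx, the micropeptide that completes fusion, stood at 0.347, 0.449 and 0.354 CPM in the controls and at 5.21, 5.58 and 6.10 CPM in mutants 1 to 3, with 0.506 CPM in the library labelled mutant 4 (log2 fold change 3.85 ± 0.18 SE, adjusted p = 3.97e-06). Its partner Mymk stood at 0.0743, 0.0709 and 0 CPM in the controls and at 1.2, 1.4 and 1.65 CPM in mutants 1 to 3 (adjusted p = 0.000523), and was 0 in the library labelled mutant 4. M-cadherin (Cdh15) rose by 3.34. The other 8 genes of the fusion list, were not called.

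Excitation-contraction genes divided. Of 18 tested, 7 rose, among them the calcium pump regulators Mrln (log2 fold change 3.09) and Sln (3.14) and the calsequestrin Casq2 (0.96, adjusted p = 0.0446, called in 1 of 6 fits that leave out a library). Ryr3, a ryanodine receptor that neurons also express, stood at 69.5, 64.5 and 67.5 CPM in the controls and at 46.2, 46.4 and 47.2 CPM in mutants 1 to 3. In the fourth mutant library it was 53.5 CPM, also under every control. Ryr3 fell by 0.53 (SE 0.05, adjusted p = 0.000863) and by 0.48 with that library.

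Acetylcholine receptor genes were called in both directions. In the muscle receptor and junction list, Chrna1, Chrnb1 and the collagen tail gene Colq rose (3 of 9), by 1.89, 1.31 and 2.07, and 5 of the 9 had positive and 4 negative fold changes. In the list of neuronal nicotinic subunits, Chrna3, Chrnb2 and Chrnb4 fell (3 of 6, against 1.22% of all genes), and all 6 tested had negative fold changes, as did 10459 of all 20234 genes. The difference between the lists was not tested. Chrna3 stood at 21.2, 29.3 and 26.1 CPM in the controls, at 9.29, 8.24 and 9.98 CPM in mutants 1 to 3 and at 21.4 CPM in the library labelled mutant 4, which falls in the control range (log2 fold change -1.49 ± 0.12 SE, adjusted p = 0.000215). The calls of Chrnb1, Chrna1, Chrnb2 and Chrnb4 were kept in at most 1 of 6 fits that leave out a library, and that of Colq in 2. All of these calls were lost with a term for sex (for Colq, adjusted p = 0.112).

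Muscle metabolism and membrane genes added fewer members. Of 10 metabolic genes, Ckm (muscle creatine kinase), Cox6a2 and Cox8b rose. The Ckm call was kept in 3 of the 6 fits that leave out a library, and the Cox8b call was lost with the replicate block (adjusted p = 0.0529). Cox8b, a muscle subunit of cytochrome oxidase, had 0 counts in each control and in the library labelled mutant 4, and 17, 22 and 13 counts in mutants 1 to 3. Against a floor of 3 counts over the 3 controls it was at least 13.4-fold higher. The list's median of 0.23 is the same with Cox8b at that bound, since Cox8b lies above the median either way. Of the 11 dystrophin complex and caveolin genes, Sgca and Cav3 rose, by 3.68 and 3.27, from levels at or under 0.177 CPM. Genes of mature fibres and tendon summed to 4.87 to 5.25 CPM in the controls and 5.14 to 6.87 CPM in mutants 1 to 3. Of the 6 tested, Ckm alone was called, and the tendon genes Scx and Tnmd lay at 2.13 and 0.212 CPM or less in each of the 7 libraries. Smooth muscle and pericyte genes gave 1 of 11 (Acta2, 1.74) and cartilage and bone genes 2 of 9 higher and 1 lower, where 1.98% of all genes rose and 1.22% fell.

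**Figure D1:**
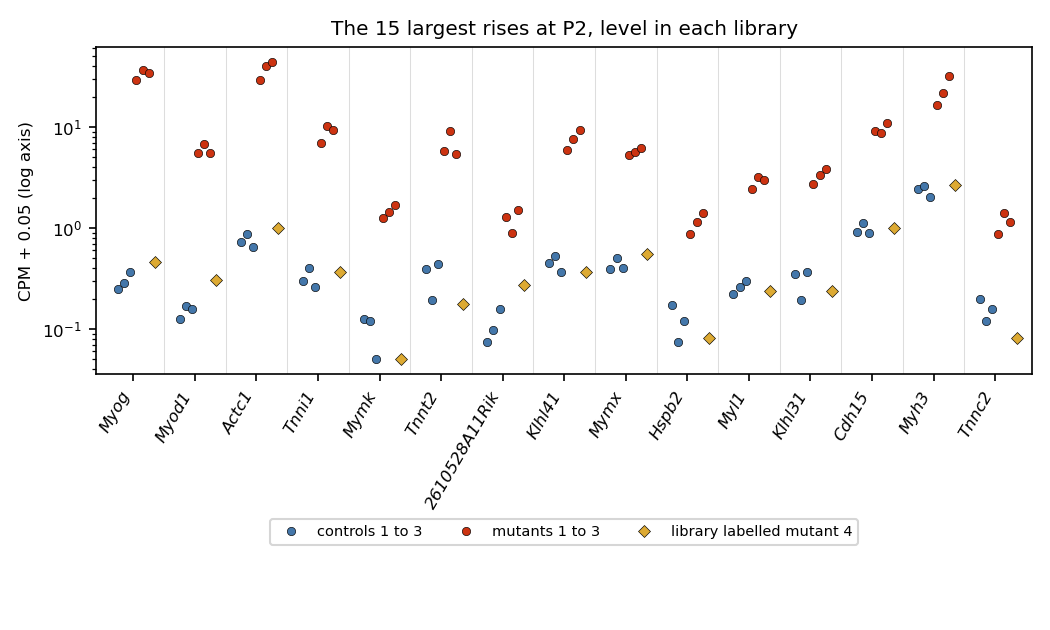
Level of the 15 genes with the largest rises in each library, in CPM plus 0.05 on a log axis, with controls in blue, mutants 1 to 3 in red and the library labelled mutant 4 as yellow diamonds. The genes were chosen to have no overlap between mutants 1 to 3 and the controls, as 25.5% of all genes tested have. The diamonds stay close to the controls (Myog 0.411 CPM).

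**Figure D2:**
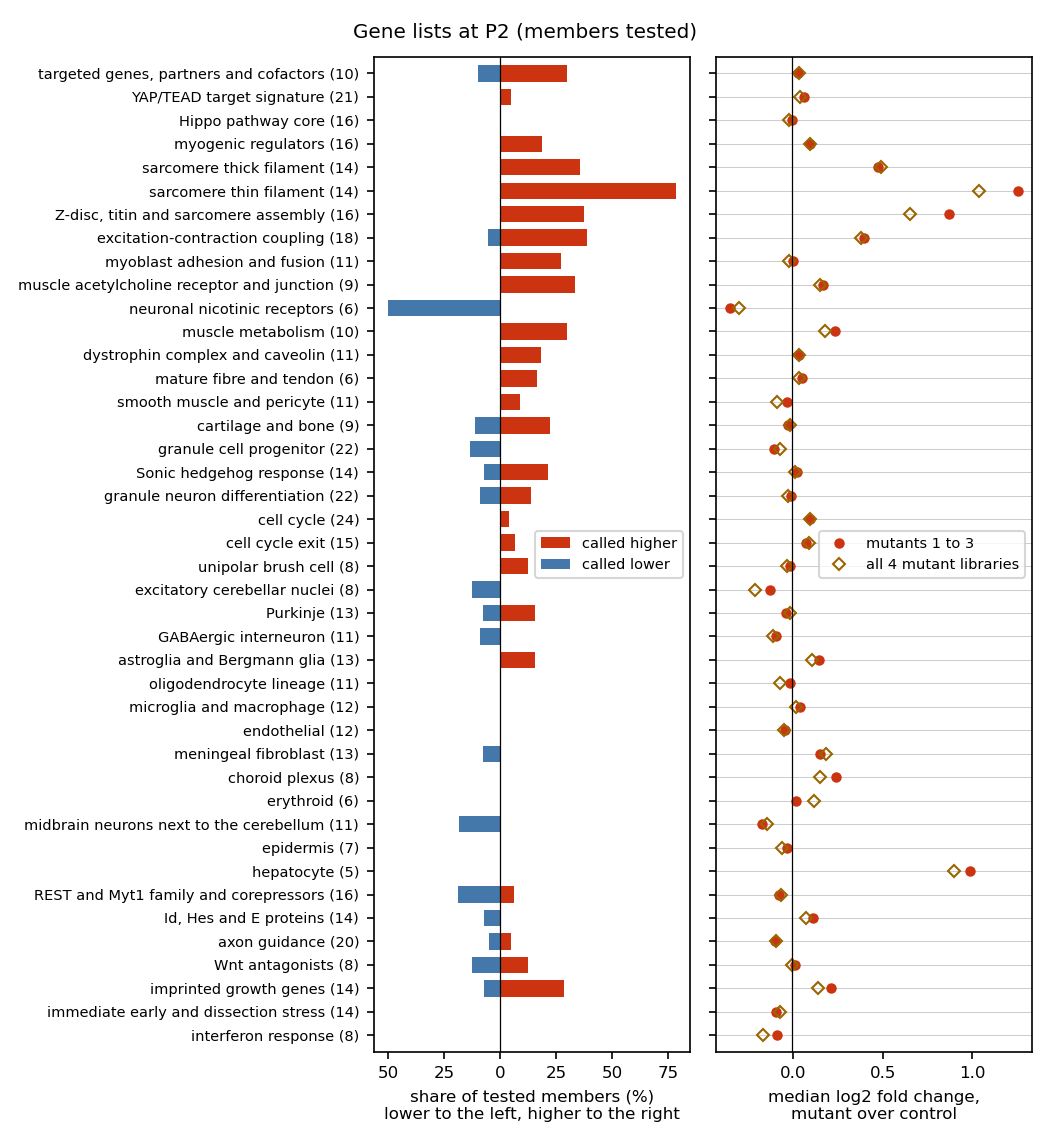
For each gene list, the share of tested members called lower (blue, to the left) and higher (red, to the right), and the median log2 fold change over mutants 1 to 3 (red points) and over all 4 mutant libraries (open diamonds), with the number tested in brackets. The thin filament list has the highest share, 11 of 14, and the neuronal nicotinic list the highest share called lower, 3 of 6. The vertical line on the right is the median of all genes.

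The 15 largest falls included genes of neurons and of signalling, and 9 loci known only by a clone or model name. Cartpt, a neuropeptide precursor, stood at 9.43, 7.37 and 10.5 CPM in the controls and at 1.81, 1.92 and 2.12 CPM in mutants 1 to 3, and at 11.5 CPM in the library labelled mutant 4. Mutants 1 to 3 are below every control and the fourth is above them all (log2 fold change -2.22 ± 0.16 SE without it, adjusted p = 8.12e-05, and -1.13 with it). Dmrta1, a DM-domain transcription factor gene, stood at 10.1, 7.49 and 5.27 CPM in the controls and at 1.97, 1.84 and 1.81 CPM in mutants 1 to 3, with 7.55 CPM in the fourth (log2 fold change -2.03 ± 0.22 SE, adjusted p = 0.00124).

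Otx1, a homeobox gene of the fore- and midbrain and of posterior granule cells, stood at 1.24, 1.58 and 0.813 CPM in the controls and at 0.0227, 0.236 and 0 CPM in mutants 1 to 3 (adjusted p = 0.0187), with 0.916 CPM in the library labelled mutant 4. Its call was kept in 3 of the 6 fits that leave out a library and lost with a term for sex (adjusted p = 0.0757, in a range up to 0.161 over the alternatives). Pou4f2, a POU-domain factor of midbrain and retinal neurons, fell from 3.68 to 4.41 CPM to 0.945 to 1.46 CPM (log2 fold change -1.74, adjusted p = 0.00124). These 2 were the called members of 11 midbrain genes, where 1.22% of all genes fell. That list summed to 178 to 183 CPM in the controls and 157 to 191 CPM in mutants 1 to 3, and the part of dissection at the midbrain border was not tested. The BMP antagonist gene Chrdl2 fell by 1.77 on the log2 scale. The long noncoding loci C230057A21Rik, 9130024F11Rik, Gm17322, Gm26911 and Gm28703 had log2 fold changes of -2.68 to -1.45, and the unclassified locus Gm45697 had -2.02. The Gm26911 call was kept in 4 of 6 fits that leave out a library. It was lost with a term for sex (adjusted p = 0.0512) and with the replicate block (0.0513).

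The genes Gm3173, Gm3373 and Gm3194 lie on chromosome 14, and their calls are uncertain. Over the promoter windows of all their starts, Gm3173 and Gm3373 share a run of up to 58 identical bases. Those windows lie mostly before the start, and whether reads were split between copies was not tested. The longest run that Gm3194 shares there with either is 10 bases. Gm3173 stood at 1.86, 0.425 and 2.23 CPM in the controls, at 0.0227, 0.173 and 0 CPM in mutants 1 to 3 and at 0.474 CPM in the library labelled mutant 4 (log2 fold change -4.14, adjusted p = 0.0271, called in 3 of 6 fits that leave out a library). Gm3373 stood at 15.8, 1.25 and 10.2 CPM in the controls and at 1.2, 0.913 and 0.880 CPM in mutants 1 to 3. Control 2 and the library labelled mutant 4 (0.916 CPM), the 2 females, lie near the mutants. Its call (adjusted p = 0.0461) was kept in 1 of 6 fits that leave out a library. Gm3194 stood at 13.8, 3.73 and 14.7 CPM in the controls, at 2.13, 1.80 and 1.92 CPM in mutants 1 to 3 and at 2.50 CPM in the library labelled mutant 4. Its log2 fold change was -2.46 (adjusted p = 0.0177, called in 3 of 6 such fits). With a term for sex the adjusted p of Gm3173, Gm3373 and Gm3194 was 0.00767, 9.17e-05 and 2.81e-05. With the replicate block it was 0.0953, 0.0754 and 0.0224.

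**Figure D3:**
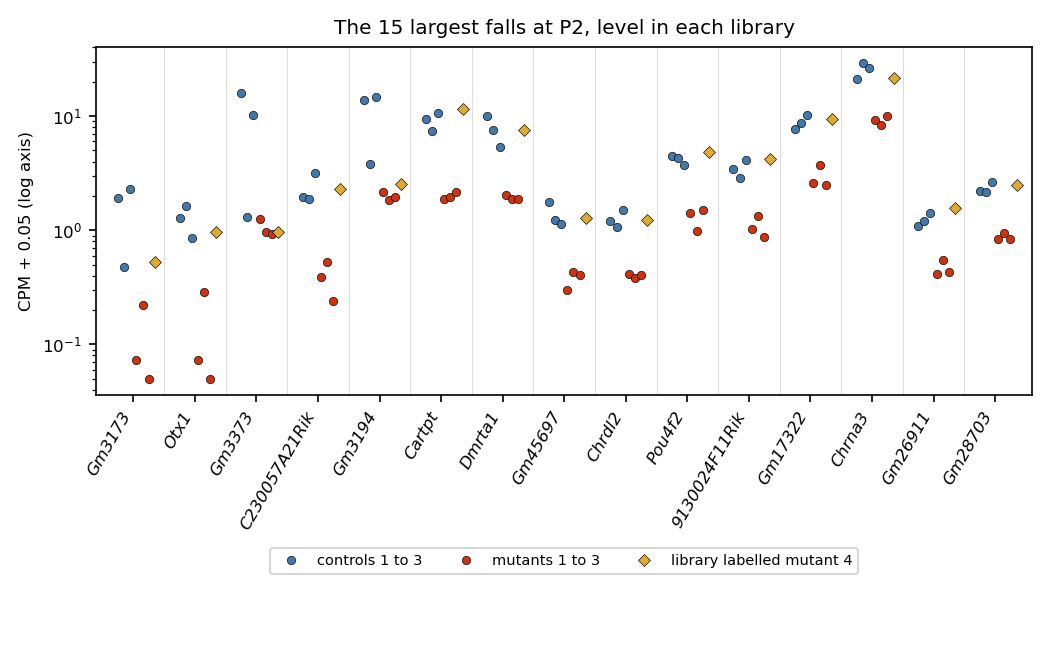
Level of the 15 genes with the largest falls in each library, in CPM plus 0.05 on a log axis, with the colours of the plot of rises. The library labelled mutant 4 lies with the controls for most of them (Cartpt 11.5 CPM) and with mutants 1 to 3 for Gm3373 (0.916 CPM).

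Of 22 granule progenitor genes, 0 rose and 3 fell (1.22% of all genes fell), and their median log2 fold change was -0.11. Sfrp1, a secreted Wnt antagonist, stood at 67.1, 69.9 and 57.7 CPM in the controls, at 29.3, 28.2 and 34.7 CPM in mutants 1 to 3 and at 66.0 CPM in the library labelled mutant 4 (log2 fold change -1.08 ± 0.09 SE, adjusted p = 0.000375). Nhlh1, a helix-loop-helix factor of newborn neurons, stood at 20.1, 24.4 and 22.1 CPM, at 12.5, 12 and 12.3 CPM and at 22.2 CPM in the same order (log2 fold change -0.86, adjusted p = 0.000538). For both genes mutants 1 to 3 are below all controls and the fourth library is within their range. Barhl2 fell by 1.01 (adjusted p = 0.0427, called in 1 of 6 fits that leave out a library). Atoh1 itself, the progenitor factor whose regulatory sequence drives the Cre, stood at 24.0, 30 and 26.4 CPM in the controls and at 23.3, 23.9 and 23.7 CPM in mutants 1 to 3 and was not called (log2 fold change -0.18, adjusted p = 0.234).

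Of 22 genes of granule neuron differentiation, 3 rose and 2 fell, where 1.98% of all genes rose and 1.22% fell. The synaptic genes Grin2c (an NMDA receptor subunit), Cbln3 (a secreted synaptic organiser) and the factor Neurod2 rose, by 1.68, 0.83 and 0.49. The early axonal genes Cntn2, an adhesion molecule of granule cells that have just left the cycle, and Tubb3, a neuronal tubulin, fell by 0.78 and 0.36. The Cntn2 call was kept in 3 of the 6 fits that leave out a library, and the Tubb3 call was lost with the replicate block (adjusted p = 0.0807, in a range up to 0.209 over the alternatives). Grin2c stood at 1.73, 1.98 and 3.64 CPM in the controls and 7.37, 7.92 and 7.75 CPM in mutants 1 to 3, with 2.09 CPM in the library labelled mutant 4. In the Sonic hedgehog list, Ccnd1 (cyclin D1) and the co-receptor genes Gas1 and Cdon rose, by 0.52, 0.54 and 0.79, and Sfrp1 fell, whereas the direct targets Gli1 (-0.16, adjusted p = 0.310) and Ptch1 (0.01) were not called. CDON also acts at the surface of myoblasts. Of 24 cell cycle genes only Cdk1 was called, higher by 0.32 (adjusted p = 0.0388, kept in 1 of 6 fits that leave out a library), and 19 had positive fold changes. The cycle inhibitor Cdkn1c stood at 85.2, 88.2 and 93.1 CPM in the controls, 173, 174 and 181 CPM in mutants 1 to 3 and 90.1 CPM in the fourth. It rose by 0.99 (SE 0.06, adjusted p = 2.36e-05).

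Genes read as YAP and TEAD targets in other tissues gave 1 call among 21 (higher, as were 1.98% of all genes), with a median log2 fold change of 0.06. The called gene was Amotl2, which binds YAP in the cytoplasm, with 44.2, 51.3 and 51.9 CPM in the controls, 64.7, 71.1 and 73.8 CPM in mutants 1 to 3 and 47.8 CPM in the library labelled mutant 4 (log2 fold change 0.51, adjusted p = 0.00909). The classic targets Ccn1 and Ccn2 had log2 fold changes of 0.21 and 0.40 at levels of 1.37 to 3.17 CPM (adjusted p = 0.743 and 0.242). None of 16 Hippo pathway genes was called. Yap1 rose by 0.35 (adjusted p = 0.0152, called in 3 of 6 fits that leave out a library), and Wwtr1, which encodes TAZ, had a log2 fold change of 0.22 (adjusted p = 0.0660). Vgll3 and Vgll4, the other TEAD cofactor genes tested, were not called. Vgll1 and Vgll2 were too low to be tested. Vgll2 had 1, 2 and 0 counts in the controls, 7, 25 and 13 in mutants 1 to 3 and 0 in the library labelled mutant 4.

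Insm1 was higher in the Tead1/2 mutants. It stood at 62.1, 62.6 and 60.3 CPM in the controls, at 85.1, 102 and 89.4 CPM in mutants 1 to 3 and at 69.4 CPM in the library labelled mutant 4, which lies between the groups. Insm1 rose by 0.58 ± 0.07 SE (adjusted p = 0.00235) and by 0.49 with that library. It was called in 12 of the 15 alternative fits, with an adjusted p of up to 0.411 among them. In the P7 libraries described below, Insm1 had a log2 fold change of -0.75 and was not called (adjusted p = 0.0535). Among factors that hold other fates silent in neurons, the zinc finger genes Myt1, Myt1l and St18 fell, by 0.62, 0.35 and 0.80, and Rest, which silences neuronal genes in other cells, rose by 0.32 (adjusted p = 0.0291). These were 4 of 16 tested, where 1.98% of all genes rose and 1.22% fell, shares that also stand behind the next counts. The Rest call was kept in 2 of the 6 fits that leave out a library and the Myt1l call in 4. St18 stood at 79.2, 82.3 and 86.1 CPM in the controls, 45.9, 45.8 and 50.9 CPM in mutants 1 to 3 and 83.5 CPM in the library labelled mutant 4. The Notch target Hey1 fell by 0.99 and was the called gene among 14 Id, Hes and E protein genes. Of 20 axon guidance genes, the netrin receptor genes Dcc and Unc5b moved in opposite directions. Dcc stood at 186, 193 and 183 CPM in the controls and 102, 101 and 115 CPM in mutants 1 to 3 (log2 fold change -0.82), and Unc5b at 20.4, 24.8 and 23.6 CPM and 49.3, 53.5 and 55.2 CPM (1.2). The library labelled mutant 4 had 180 and 21.0 CPM.

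Imprinted growth genes included 4 that rose and 1 that fell among 14, where 1.98% of all genes rose and 1.22% fell. H19, a noncoding RNA abundant in embryonic muscle, stood at 13.9, 12.7 and 18.7 CPM in the controls, 30.7, 69.1 and 51.9 CPM in mutants 1 to 3 and 16.6 CPM in the library labelled mutant 4 (log2 fold change 1.75, adjusted p = 0.00742). Mest and Grb10 rose by 0.86 and 0.49 beside Cdkn1c. Meg3, another noncoding RNA, stood at 671, 562 and 542 CPM in the controls and at 390, 377 and 401 CPM in mutants 1 to 3 (log2 fold change -0.60, adjusted p = 0.00423). In the library labelled mutant 4 it was 437 CPM, also below every control.

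Lists for other cells of the cerebellum held single calls or none, apart from those of Purkinje cells and astroglia, where 1.98% of all genes rose and 1.22% fell. The Purkinje genes Calb1 and Pcp4 rose by 0.34 and 0.37 and Lhx1 fell by 0.46 (3 of 13), and the astroglial genes Aqp4 and Fabp7 rose by 0.38 and 0.33 (2 of 13). The Purkinje list had 5 positive and 8 negative fold changes (median -0.04), and the astroglial list 10 positive and 3 negative (median 0.15). Of the 8 unipolar brush cell genes Wls rose, of the 8 genes of excitatory nuclei Slc17a6 fell by 0.50, and of the 13 meningeal genes Fbln2 fell by 1.26. Of the 6 fits that leave out a library, Calb1 and Pcp4 were called in 3, Lhx1, Aqp4, Wls and Slc17a6 in 2, Fabp7 in 1 and Fbln2 in 6. With a term for sex the calls of Slc17a6 and Fbln2 were kept and the others lost. No gene was called among 11 oligodendrocyte, 12 microglia, 12 endothelial, 6 erythroid, 14 immediate early and 8 interferon response genes. Lhx1 was also the called gene among 11 of GABAergic interneurons, of which 1 had a positive and 10 a negative fold change (median -0.10).

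Outside the muscle lists, genes called at P2 had median levels in the library labelled mutant 4 between those of the controls and the other mutants. For the 357 other genes called higher at P2 its median log2 difference from the control mean was 0.13, against 0.41, 0.39 and 0.37 in mutants 1 to 3 and -0.02 to 0.01 in the controls. For the 245 called lower it was -0.13, against -0.49, -0.52 and -0.42, with -0.03 to 0.02 in the controls. Those genes were called from these libraries, so the values describe them. Genes were also chosen by their change in other animals, the P7 single-cell libraries of the same genotypes, and divided by membership of the muscle lists, which were drawn up with P2 results known. The values of the muscle genes in this library are those for which it was set apart. Outside the muscle lists, 39 genes had fallen at least 4-fold at P7. At P2 their median log2 difference from the control mean was -0.49, -0.50 and -0.47 in mutants 1, 2 and 3, and -0.005 in the library labelled mutant 4. The controls themselves lay at 0.08, 0.02 and -0.09. For 82 muscle genes that had risen at least 4-fold at P7 the medians were 0.52, 0.65 and 0.64 in mutants 1 to 3 and -0.05 in the fourth. For 608 other genes that had risen at P7 they were 0.09, 0.12 and 0.08, and -0.05, below the controls at 0.01, -0.02 and 0.02. Among the 246 genes called lower at P2, the fourth library lay within the controls for 92, within mutants 1 to 3 for 23 and outside both ranges for 131. For the 400 called higher these counts were 122, 57 and 221. In Meg3 and Ryr3 the fourth library lay below every control, as mutants 1 to 3 did. Its sex, which control 2 shares, cannot be told apart from other properties of this single library.

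**Figure D4:**
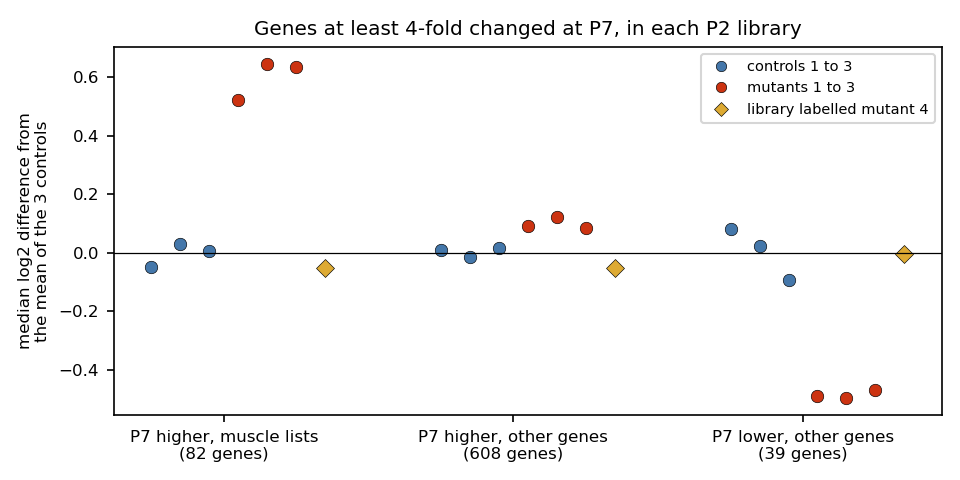
Median log2 difference of each P2 library from the mean of the 3 controls, over genes chosen at P7: muscle list genes and other genes at least 4-fold higher at P7, and other genes at least 4-fold lower. Mutants 1 to 3 (red) stand away from the controls (blue) for the muscle genes and the genes that fell at P7, while the library labelled mutant 4 (yellow) lies at -0.05 and -0.005.

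The P7 libraries give the same genes in other, older animals. They are single-cell libraries of dissociated cerebella from 2 controls and 3 mutants, summed over barcodes with at least 1000 transcripts (6411 to 9733 per library, with 0 barcodes shared between libraries). At P7, 24.2% of the genes tested at both ages were called higher and 26.2% lower. Of the 400 genes that rose at P2, 367 were tested at P7, where 228 were higher and 28 lower. Of the 246 that fell, 201 were tested, and 148 were lower and 18 higher. All 43 muscle genes that rose at P2 were higher at P7, and so were 63 muscle genes that were not called at P2. Whether the effect differs between the ages was not tested, since age, assay and animals differ together.

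Levels at P7 are CPM of transcripts, and are not on the scale of the P2 levels. Myog stood at 0.489 and 0.564 CPM in the 2 controls at P7 and at 62.7, 120 and 96.3 in the 3 mutants. Myh3 stood at 8.99 and 11 in the controls and at 3234, 3360 and 2176 in the mutants. Tead4, which was not deleted and which myoblasts use, stood at 1.61 and 1.21 against 96.3, 110 and 86.6. In the test at P7, Tead1 was called higher at P7 (log2 fold change 0.94, adjusted p = 0.000132), Tead2 lower (-1.95) and Tead3 higher (0.34, adjusted p = 0.0413). Otx1 ran the other way, with 16.6 and 17.9 in the controls and 0.321, 0.250 and 0.356 in the mutants. Control 1 and mutant 1 held all lobules, and the other 3 libraries were dissected without lobules IX and X, and the fall is present in both kinds. Myh8, Myh7 and Myh2, which were not called at P2, had log2 fold changes of 8.15, 8.48 and 9.04 at P7.

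Of the named genes, 4 were called in opposite directions at the ages. Meg3, lower at P2, stood at 61.7 and 64.3 CPM in the P7 controls and at 1244, 1242 and 891 in the mutants (log2 fold change 4.07, adjusted p = 7.47e-06). Ryr3 likewise went from lower to higher (2.35 at P7). Cdk1 and Sfrp2, higher at P2, were lower at P7 (-0.80 and -0.83), but the P2 call of each was kept in only 1 of 6 fits that leave out a library. All 24 cell cycle genes were called lower at P7, as were 26.2% of all genes, and 0 were lower at P2. Of 98 named genes called at P2 and tested at P7 (Cox8b left aside), 85 were called in the same direction, these 4 in the opposite direction and the others were not called. Of all genes tested at both ages, 24.2% were called higher and 26.2% lower at P7. Gene lists were chosen with earlier results of these data known, so the count of 85 is not independent evidence. Pou4f2 and Cartpt were too low at P7 to be tested, and no P7 library held over 2 transcripts of Pou4f2 or over 7 of Cartpt.

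**Figure D5:**
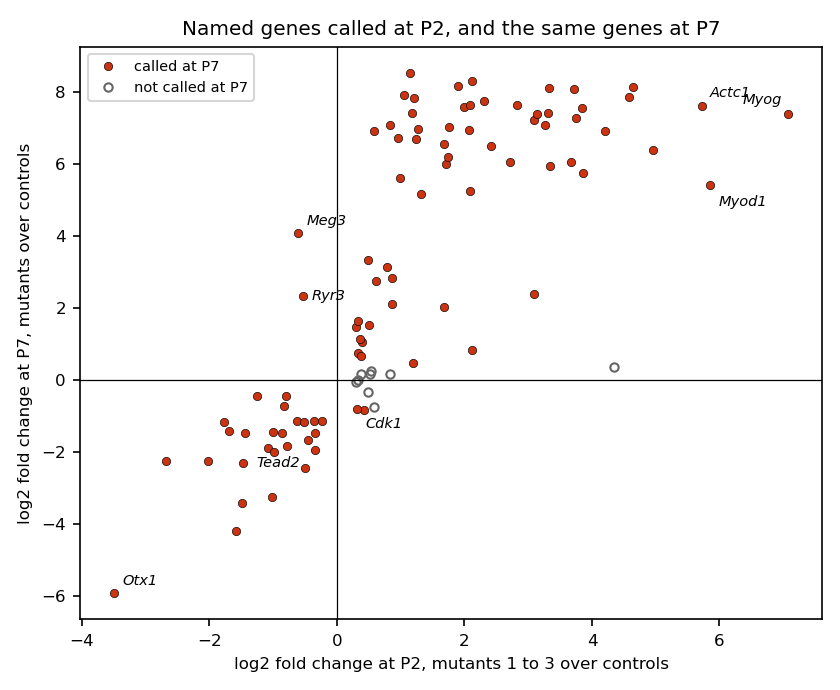
Log2 fold change at P2 (mutants 1 to 3 over controls) against log2 fold change at P7 for the named genes called at P2, with Cox8b left out because its P2 controls hold 0 counts. Filled points are called at P7 and open points are not. Muscle genes fill the upper right, and Meg3 and Ryr3 stand in the upper left.

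The deletion of Insm1 with the same Cre, profiled in another batch with its own controls, was set beside these values. In those 8 libraries 0.686% of the genes tested in both experiments were called. Of 396 genes that rose in the Tead1/2 mutants and were tested, 71 were higher and 1 lower in the Insm1 mutants. Of 246 that fell, 27 were lower and 0 higher. Of 113 muscle genes tested in both, 39 were higher in the Insm1 mutants and 33 rose in both experiments. Myog had a log2 fold change of 4.52 in the Insm1 mutants (adjusted p = 0.0246), Actc1 4.26, Otx1 -3.29 and Sfrp1 -1.17, all called. Myod1 had 1.67 there and was not called (adjusted p = 0.0748). The difference between the effects of the 2 deletions was tested for 20859 genes, and edgeR called 0 (1435 at an unadjusted p under 0.05), with a lowest adjusted p of 0.0517 shared by Antxr2, Insm1, Gpr153 and Myod1. For Myod1 the Tead1/2 effect was larger by 4.18 on the log2 scale (SE 0.64). DESeq2 called 32 genes as different, among them Antxr2, Insm1, Gpr153 and Myod1 (adjusted p of at most 8.06e-05). With the library labelled mutant 4 edgeR also called 0. Insm1, the deleted gene of the other line, differed by 2.50.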

How the data were processed

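Total RNA of P2 cerebella was sequenced from a stranded library kit. Unscaled gene-level expected counts from RSEM are what the authors deposited, per the file headers. STAR 2.7.9a, RSEM 1.3.3 and the builds GRCm38.p6 and mm10 are listed in the submitters' processing notes; whether counting used the strand is not given in the sources used here. Labels name the table of the other line, so columns were matched to samples by column name, and 0 columns were left without a sample. After removal of 92 ERCC entries, expected counts were rounded, filtered with filterByExpr, scaled by TMM and tested with edgeR 4.0.16 (quasi-likelihood, Benjamini-Hochberg over all genes tested, threshold 0.05) in R 4.3.3. DESeq2 1.42.0 was an alternative. The P7 files hold transcript counts per barcode as deposited by the authors. They were summed over barcodes with at least 1000 transcripts and under 15% mitochondrial ones, without a doublet filter, and libraries were taken from the sample names in the cell metadata.

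Named genes were the 15 largest rises and falls among calls whose higher group averaged 1 CPM or more and whose groups did not overlap, the called members of the lists, and the TEAD genes with their cofactors. Members and lists were chosen with earlier results of these data known. Per-library shifts used log2(CPM + 0.5). Replicate numbers were not taken as a pairing of the samples, and libraries came from separate pups. Expected counts of 28066643 to 64518751 per library set the precision of low genes. Alternatives covered libraries, tool, scaling, filter, replicates, sex and the samples in the fit.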

Additional observations from a re-analysis of the deposited data

Results flagged for a closer look

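Within the 4 mutant libraries, 28 named genes had a library set apart from the other 3, by a gap to its nearest neighbour that took up most of the whole range (Dixon's criterion at the 95% level for 4 samples). Chance gives this in about 1 in 20 groups that were not selected, a rate that does not apply here. The named genes were mostly chosen as calls from mutants 1 to 3 with the library labelled mutant 4 left out, and that library was left out with its muscle gene values known. The gaps are therefore a description of those values and no separate support. For 27 of the 28 the library set apart was the one labelled mutant 4. Among muscle genes the gap was 0.938 of the range for Myog, 0.921 for Myod1, 0.879 for Actc1, 0.855 for Tnni1, 0.840 for Mymk, 0.923 for Mymx and 0.851 for Myl1. It was 0.831 for Klhl31, 0.888 for Cdh15, 0.913 for Ttn, 0.906 for Mrln, 0.842 for Sln, 0.922 for Cox8b, 0.835 for Cox6a2, 0.943 for Myom2 and 0.898 for Stac3. Ryr3 had 0.854 and Tead4 0.854.

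Outside muscle, the gap was 0.925 for Cartpt, 0.947 for Dmrta1, 0.946 for Chrdl2, 0.905 for Gm28703, 0.893 for Col9a1, 0.931 for Cdkn1c, 0.883 for Unc5b, 0.927 for Nhlh1 and 0.942 for Grin2c. Gm3373 had 0.875, with mutant 1 set apart from the other 3.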

How the results depend on the processing

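The count of 646 genes called at P2 was 0 with all 7 libraries, 1198 with DESeq2 on 6 libraries, 1005 with DESeq2 on all 7 and 1786 without the filter on low counts. It was 256 with a term for sex and 318 with all bulk libraries except mutant 4 in 1 fit. With a sex term over all 7 libraries, an alternative chosen after seeing the data, it was 3. Leaving out 1 library gave 234 to 747. With a replicate block it was 221. The correlations of same-numbered residuals were -0.0703, -0.0033 and -0.0783. Each group of 3 libraries was first centred on its own mean, so these values show no pairing but cannot exclude one. DESeq2 size factors gave 644. Of the calls, 61.9% were higher, against 69.8% with DESeq2 on all 7 libraries. The count of genes differing between the deletions was 0, and 32 with DESeq2. The count at P7 was 10808, and 6800 to 11118 with 1 library left out (6800 without control 2); the replicate block by dissection gave 10077.

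Log2 fold changes near 0 turned sign. With 1 library left out, Tead1 ran from -0.25 to 0.049 (without control 1), Vgll3 from -0.20 to 0.000673 (without control 1) and Insm2 from -0.12 to 0.00148 (without control 3). Insm2 had 0.00295 with a sex term over all 7 libraries. The calls of Actn2, Myom2, Hrc, Chrnb1 and Stac3 were lost in each of the 6 fits that leave out a library. The cause of these changes was not tested. Genes under about 1 CPM rest on few counts, 3 mutants and 3 controls limit small changes, and the library labelled mutant 4 is 1 of the 2 from females.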

Other observations

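Groups chosen after their values were seen also moved. Of 81 ribosomal protein genes, 33 rose and 0 fell (1.98% of all genes rose), and all 81 had positive fold changes, with a median log2 fold change of 0.29 (0.27 with the library labelled mutant 4). They took 2.58%, 2.57% and 2.71% of counts in the controls, 3.25%, 3.13% and 2.93% in mutants 1 to 3 and 2.87% in the library labelled mutant 4, which also lies above the controls. Of 20 neuronal cytoskeleton genes, 9 fell (Tubb3, Nefl, Nefm, Ina, Mapt, Dpysl2, Dpysl3, Kif5a and Elavl4) and 0 rose (1.22% of all genes fell), and all 20 had negative fold changes, with a median of -0.28.

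Among 1682 tested loci of the annotation class TEC, which await experimental evidence of a gene, 35 fell (2.08%, against 1.22% of all genes) and 0 rose, with a median of -0.77 for the called loci and -0.27 for all. These loci took 0.494%, 0.424% and 0.398% of counts in the controls, 0.355%, 0.338% and 0.379% in mutants 1 to 3 and 0.371% in the library labelled mutant 4. The gene 2610528A11Rik rose by 4.34 on the log2 scale at P2 and was not called at P7 (0.35). Col9a1, a cartilage collagen gene, rose by 2.11 at P2 and by 0.84 at P7.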
